A study of Mus musculus with 12 samples.

Results

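The ATP-binding cassette (ABC) genes are described here in 12 liver samples of male mice. Of these, 4 were from p65 S534A mice given LPS, 4 from wild-type (WT) mice given LPS and 4 from untreated WT mice. A gene was a member when a probe set carried its symbol alone and that symbol was Abc, a letter from a to g and a digit. That rule found 48 genes among the 19938 genes measured. They comprised 16 of subfamily A, 9 of B, 10 of C, 3 of D, 1 of E, 3 of F and 6 of G. Abcb5 alone had a second probe set, and the one with the higher mean over the 12 arrays was used. The S534A mice were homozygous for a serine-to-alanine substitution in p65 (Rela), a subunit of the transcription factor NF-kB, in every cell. The knock-in came from targeted PTL1 embryonic stem cells and was then backcrossed to C57Bl6/J. Both LPS groups received 1 µg/kg of LPS, the endotoxin of Gram-negative bacteria. The labels give C57Bl/6 as the background strain of all mice and C57Bl6/J in their source. The labels give neither their ages nor the time between LPS and collection, and no untreated S534A liver is among the samples, so the allele's effect without LPS was not measured.

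ABC proteins bind and hydrolyse ATP, and most use it to move a substrate across a membrane. In hepatocytes, those of the canalicular membrane export bile salts, phospholipid, sterols and conjugated bilirubin into bile, while others export conjugates back to blood or load lipid onto lipoproteins. Still others sit in mitochondria, peroxisomes or lysosomes, and subfamilies E and F have no membrane part and act at the ribosome. In rodents given endotoxin, bile flow and several hepatocyte transporters are known to decrease.

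All values are log2 values from the array, given in the order of replicates 1 to 4, and a difference of 1 is a doubling. Levels of different genes are not set against each other, because each probe set has its own brightness. Of the 48 genes, 38 averaged at least 6 over the 12 arrays. The 10 below that, near the dim end of the array, were Abca4, Abca12 to Abca17, Abcb5, Abcc12 and Abcg3. Each sample is labelled as liver, a mixture of cells, so fewer cells of a type and less RNA per cell cannot be told apart.

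Some arrays stood apart from their group. The mean of 11 exocrine pancreas markers was 9.41 on S534A LPS replicate 3, 8.39 on WT LPS replicate 2 and 6.78 on WT LPS replicate 3, against 5.84 to 6.33 on the other 9 arrays. The clock genes Arntl and Dbp split the untreated livers: Arntl read 9.03, 6.29, 9.08 and 6.20 and Dbp 8.14, 11.19, 7.59 and 11.39 on untreated replicates 1 to 4. Per2 split them likewise, at 7.33, 9.09, 7.17 and 8.70. Nr1d1 did not, at 11.63, 10.79, 10.62 and 11.71, with replicates 1 and 4 high. Neutrophil markers averaged 7.00 to 7.34 on the S534A LPS arrays, 6.59 to 6.90 on the WT LPS arrays and 5.39 to 5.54 on the untreated arrays, and 8 of 10 passed the test in each LPS group against untreated. Between S534A LPS and WT LPS livers 2 of these 10 passed, both higher in S534A LPS livers. Markers of sinusoidal endothelium averaged 8.67 to 8.89, 8.68 to 9.08 and 9.25 to 9.45 on the S534A LPS, WT LPS and untreated arrays, and those of stellate cells 7.93 to 8.12, 7.87 to 8.02 and 8.38 to 8.47. Kupffer cell and macrophage markers averaged 8.98 to 9.17 on the S534A LPS arrays, 8.68 to 9.28 on the WT LPS arrays and 9.07 to 9.51 on the untreated arrays, with 5 of 10 lower and 1 higher in S534A LPS livers and 4 lower and 1 higher in WT LPS livers against untreated. Of 10 endothelial markers 7 passed as lower and 1 as higher in S534A LPS livers, and 5 and 1 in WT LPS livers. Of 10 stellate cell markers 5 passed as lower in each LPS group and none as higher. Hepatocyte markers averaged 13.3 to 13.4 on every array. Of 9, 1 passed as higher and 1 as lower in S534A LPS livers, and 2 and 1 in WT LPS livers. Of all genes, 11% rose and 16% fell in S534A LPS livers, and 9.34% rose and 15.6% fell in WT LPS livers. What part any of these differences had in the ABC results was not tested, apart from the values given below without the arrays named.

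Upstream sequence is shown for the sterol exporter that rose, for the divergent sterol pair, and for the 2 canalicular pumps that mark the hepatocyte, since Abcc2 fell and Abcb11 did not pass the test. Sequences are from RefSeq on GRCm38.p6, 5′ to 3′ on the gene's strand, with only the motif named for each gene in capitals. In Abca1 (chr4:53159989-53160045, minus strand) the capitals mark an E-box. In Abcg8 (chr17:84683046-84683075, plus strand) they mark a GATA box, read on the opposite strand. In Abcc2 (chr19:43782158-43782307, plus strand) they mark a nuclear receptor half-site, and in Abcb11 (chr2:69342617-69342766, minus strand) an inverted repeat of the kind bound by the bile acid receptor FXR. The Abcc2 stretch also opens with the GATA box, left in lower case, and Abcb11 also holds the half-site marked in Abcc2. The Abcg8 stretch lies inside the annotated extent of Abcg8, since another start of that gene lies further upstream.
Abca1: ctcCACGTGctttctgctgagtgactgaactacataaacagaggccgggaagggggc
Abcg8: gccagagtgtccTTATCtcgacaataggca
Abcc2: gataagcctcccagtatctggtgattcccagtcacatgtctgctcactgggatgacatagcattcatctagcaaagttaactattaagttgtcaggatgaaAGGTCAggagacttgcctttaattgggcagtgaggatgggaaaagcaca
Abcb11: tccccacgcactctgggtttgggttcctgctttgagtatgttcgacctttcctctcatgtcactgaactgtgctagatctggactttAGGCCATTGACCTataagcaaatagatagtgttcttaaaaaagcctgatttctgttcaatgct

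The motifs were searched on both strands in the 250 bases before each annotated start, for the 38 members with an entry and for all 32851 windows of the table. The inverted repeat, which is the half-site AGGNCA, any base and the half-site's reverse complement, was in 0.0852% of all windows. Of the 45 member windows, 1 held it, from Abcb11. The half-site AGGTCA was in 14.0% of all windows and in 7 of the 45 member windows, from 5 genes. GATAA was in 22.6% of all windows and in 10 of the 45, from 10 genes. The E-box CACGTG was in 6.02% of all windows and in 5 of the 45, from 5 genes. AGGTCA can overlap the inverted repeat. A match is a description of the letters and shows no binding.

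The first question was what LPS did to the ABC genes of WT liver. In WT LPS livers, 17 of 48 ABC genes fell and 3 rose against untreated livers, and most changes were under 2-fold. Abcd2, a peroxisomal importer of very-long-chain fatty acids, fell 4.1-fold, to a WT LPS mean of 5.95 near the dim end of the array. Abcg8, Abca8a and Abcc2 fell 1.93-fold, 1.65-fold and 1.63-fold. Abca1, the cholesterol exporter that forms HDL, rose 1.99-fold, and Abcc1 and Abce1 rose less. The genes that fell made up 35.4% of the members, where 15.6% of all genes fell, and those that rose 6.25%, where 9.34% of all genes rose. In either direction 41.7% of members and 25% of all genes were called. The median difference was -0.10 over the members and 0.02 over all genes. Among genes averaging at least 6, 42.1% of the members fell (16 of 38) and 23.4% of all such genes did. All WT LPS arrays lay below all untreated arrays in 17 members (14.9% of all genes) and above them in 3 (9.78%). These members included Abcb4, Abcg5 and Abcc4, which were not called, and left out Abcb8, Abcc9 and Abce1, which were. A gene was called when limma's Benjamini-Hochberg adjusted p over all 19938 genes was under 0.05. Without the 3 arrays with pancreas transcripts 10 members were called, 3 higher and 7 lower, which is 20.8% of the members where 16.2% of all genes were called. The calls of Abca3, Abca5, Abca6, Abca8b, Abcb8, Abcc3, Abcc9, Abcd3, Abcg3 and Abcg8 were lost, with differences 0.709 to 1.07 times those over all arrays. Without untreated replicates 2 and 4, 12 members were called, 2 higher and 10 lower, which is 25% of the members where 20.8% of all genes were called. The calls of Abca5, Abca6, Abcb8, Abcc3, Abcc9, Abcd3, Abce1 and Abcg8 were lost, with differences 0.401 to 0.857 times those over all arrays.

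The S534A LPS livers were set against the same untreated livers, so the 2 comparisons share those 4 arrays and their counts are not independent. In S534A LPS livers 14 of 48 ABC genes fell and 3 rose. Of all genes, 16% fell and 11% rose, 26.9% in all. The median difference was -0.14 over the members and 0.03 over all genes. The S534A LPS arrays all lay below the untreated arrays in 14 members (17.5% of all genes) and above them in 4 (13.8%). Abcd2 fell 3.1-fold, Abcc2 1.78-fold and Abca8a 1.77-fold, and Abca1 rose 2.03-fold. Without the 3 arrays with pancreas transcripts 14 members (29.2%) and 25.1% of all genes were called, and the lost differences of Abca5, Abcb4 and Abcc10 were 0.853 to 1.04 times those over all arrays. Without untreated replicates 2 and 4, 12 members (25%) and 22.8% of all genes were called, and the lost differences of Abca5, Abca6, Abcb10, Abcb4 and Abce1 were 0.495 to 0.788 times those over all arrays.

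**Figure D1:**
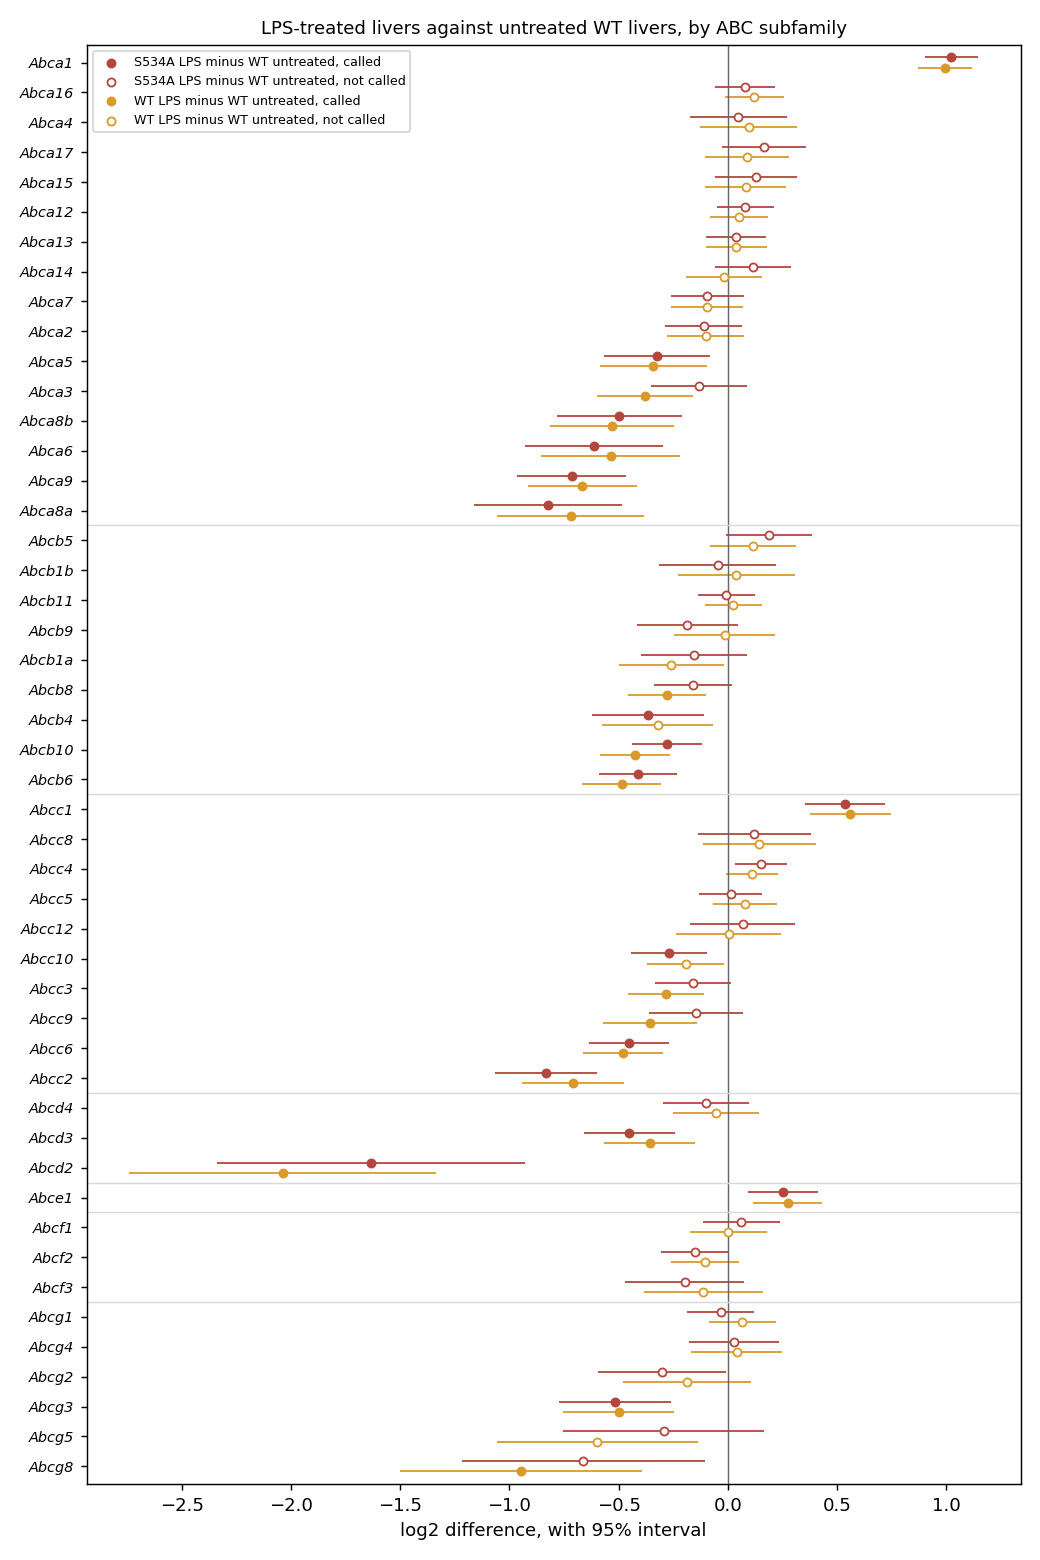
Log2 difference of each of the 48 ABC genes, S534A LPS minus untreated and WT LPS minus untreated, with limma's 95% interval, ordered by subfamily from A at the top to G. Filled points passed an adjusted p of 0.05. Abcd2 lies furthest to the left at -1.63 and -2.04, and Abca1 furthest to the right at 1.02 and 0.99.

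Of the 8 bile exporters, 2 fell in S534A LPS livers (Abcc2 and Abcb4) and 2 in WT LPS livers (Abcc2 and Abcg8), and none rose. That is 25% of the list in each, where 16% and 15.6% of all genes fell in those groups. Abcc2, also called Mrp2, exports conjugated bilirubin and glutathione conjugates into bile. It read 11.12, 11.39, 11.51 and 11.38 on the S534A LPS arrays, 11.59, 11.27, 11.63 and 11.42 on the WT LPS arrays and 11.99, 12.32, 12.11 and 12.31 on the untreated arrays. Every LPS array was below every untreated array. Abcc2 differed from untreated by -0.83 ± 0.11 in S534A LPS livers (adjusted p = 7.41e-05) and by -0.71 ± 0.11 in WT LPS livers (adjusted p = 0.000345), with standard errors after each ±. Abcb11, the bile salt export pump and the other gene that marks the canalicular membrane, read 11.99, 11.84, 11.94 and 11.97 on the S534A LPS arrays, 11.89, 11.93, 12.04 and 12.01 on the WT LPS arrays and 12.00, 11.85, 11.98 and 11.94 on the untreated arrays. The 3 groups overlapped within a narrow range. Its differences from untreated were -0.01 ± 0.06 in S534A LPS livers (95% interval -0.14 to 0.12) and 0.02 ± 0.06 in WT LPS livers (95% interval -0.11 to 0.15), with adjusted p = 0.947 and 0.81.

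Abcg5 and Abcg8 encode the 2 subunits of the pump that exports cholesterol and plant sterols into bile, and their genes lie next to each other on chromosome 17, with 109 bases between their divergent starts. Abcg8 read 9.96, 9.65, 9.59 and 9.56 on the S534A LPS arrays, 9.28, 9.26, 9.59 and 9.49 on the WT LPS arrays and 9.72, 10.68, 9.85 and 11.16 on the untreated arrays. Every WT LPS array was below every untreated array, while the S534A LPS arrays overlapped the untreated ones. Abcg8 differed from untreated by -0.66 ± 0.26 in S534A LPS livers (adjusted p = 0.0763) and by -0.95 ± 0.26 in WT LPS livers (adjusted p = 0.0159), so it passed the test in WT LPS livers and not in S534A LPS livers. Without untreated replicate 1 or 3 it also passed in S534A LPS livers (adjusted p = 0.0168 and 0.0331), whereas without untreated replicate 2 or 4 its S534A LPS difference was -0.55 (adjusted p = 0.185) or -0.39 (adjusted p = 0.19). Without untreated replicates 2 and 4 together it did not pass in WT LPS livers (-0.38, adjusted p = 0.0567). Abcg5 averaged 10.48 ± 0.33 in S534A LPS livers, 10.17 ± 0.07 in WT LPS livers and 10.77 ± 0.49 in untreated livers (SD, n = 4 each). The WT LPS arrays were all below the untreated arrays and the S534A LPS arrays overlapped them. Its differences were -0.29 ± 0.21 (adjusted p = 0.353) in S534A LPS livers and -0.60 ± 0.21 (adjusted p = 0.0567) in WT LPS livers, neither past the threshold. In both genes untreated replicates 2 and 4 were the high ones, the same livers in which Dbp was high and Arntl low. Replicates 2 and 4 were both above replicates 1 and 3 in 37.5% of ABC genes (18 of 48), against 22.2% of all genes. They were both below in 33.3% of ABC genes and 34.0% of all genes. Among the 17 ABC genes called lower in WT LPS livers, replicates 2 and 4 were both above in 12 (70.6%) and both below in 1. Abcc2 was among the 12. Those 17 were called with these same untreated arrays. What part the order had in the calls was not tested, apart from the values given without replicates 2 and 4.

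**Figure D2:**
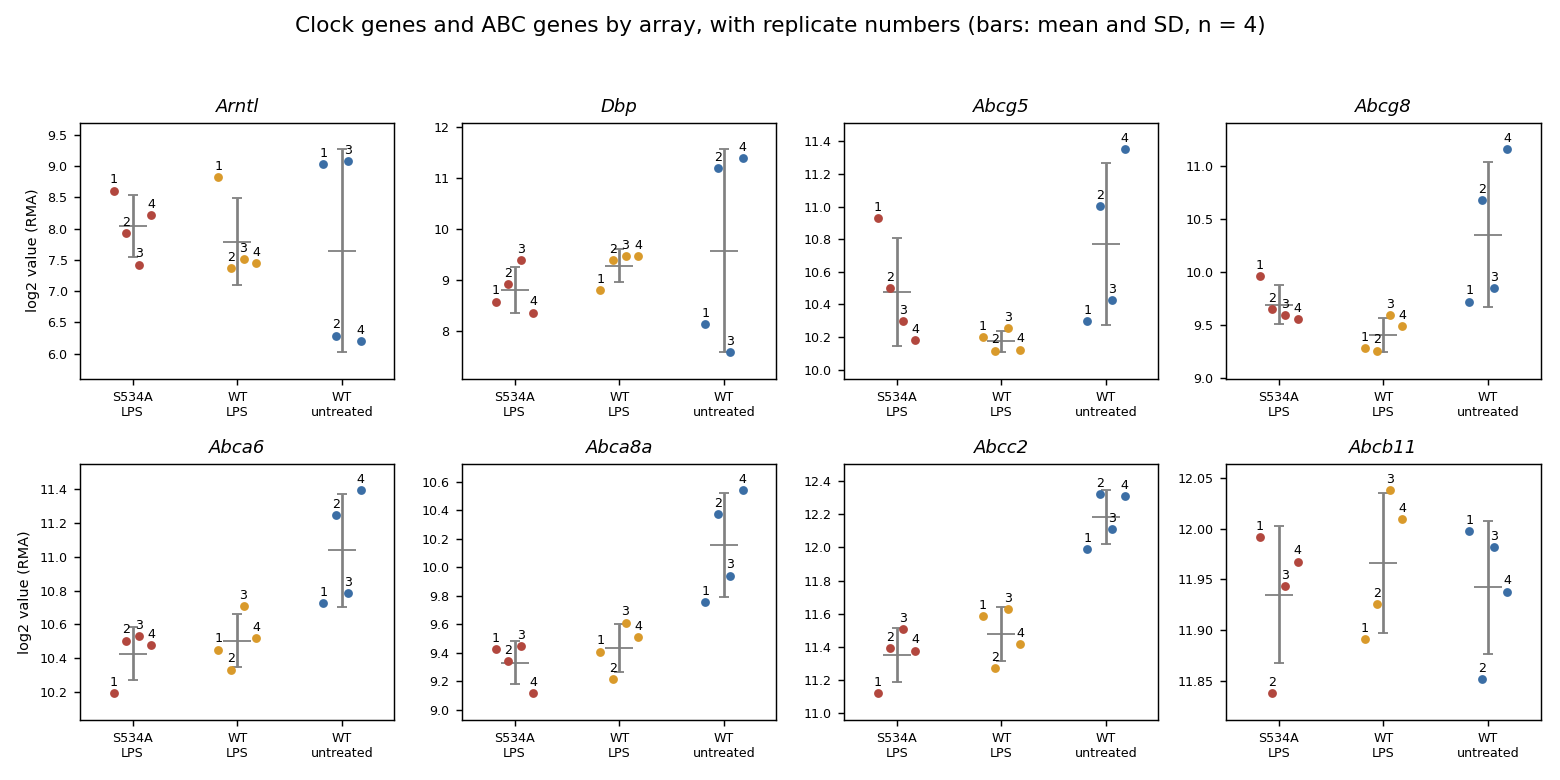
Log2 values of the clock genes Arntl and Dbp and of 6 ABC genes on each array, with the replicate number at each point and bars for the mean and SD of 4 arrays. Untreated replicates 2 and 4 read low in Arntl and high in Dbp, Abcg5, Abcg8, Abca6, Abca8a and Abcc2, and Abcb11 spans a narrow range in all groups.

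Abcb4 flips phosphatidylcholine into the canaliculus. It read 10.32, 10.75, 10.66 and 10.75 on the S534A LPS arrays, 10.78, 10.50, 10.64 and 10.74 on the WT LPS arrays and 10.87, 10.97, 10.83 and 11.28 on the untreated arrays. All LPS arrays were below the untreated ones. Abcb4 differed from untreated by -0.37 ± 0.12 in S534A LPS livers (adjusted p = 0.0348) and by -0.32 ± 0.12 in WT LPS livers (adjusted p = 0.0645), past the threshold in S534A LPS livers alone, and the difference between those 2 groups was -0.04 ± 0.12 (adjusted p = 1). The S534A call was lost without untreated replicate 2 or 4 or S534A LPS replicate 1 or 3 (adjusted p from 0.0592 to 0.103), and the WT LPS livers passed once S534A LPS replicate 1 was left out (adjusted p = 0.0345). The other 3 bile exporters did not pass in either comparison. Abcg2, an exporter of urate and xenobiotics, averaged 9.19 ± 0.22 in S534A LPS livers, 9.31 ± 0.27 in WT LPS livers and 9.49 ± 0.11 in untreated livers (SD, n = 4 each). Abcb1a and Abcb1b encode the 2 mouse P-glycoproteins, and whether their probes are separate was not tested. Abcb1a averaged 6.26 ± 0.17 in S534A LPS livers, 6.16 ± 0.06 in WT LPS livers and 6.42 ± 0.24 in untreated livers, and Abcb1b 6.41 ± 0.07 in S534A LPS livers, 6.49 ± 0.31 in WT LPS livers and 6.45 ± 0.09 in untreated livers (SD, n = 4 each).

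Among 7 further exporters of subfamily C, 1 rose and 2 fell in each LPS group. Of all genes, 11% rose and 16% fell in S534A LPS livers, and 9.34% rose and 15.6% fell in WT LPS livers. Abcc1, or Mrp1, exports glutathione conjugates and leukotriene C4 and is low in resting hepatocytes. It read 7.15, 7.13, 7.04 and 6.92 on the S534A LPS arrays, 7.15, 6.92, 6.98 and 7.28 on the WT LPS arrays and 6.64, 6.52, 6.44 and 6.49 on the untreated arrays. Both LPS groups lay above every untreated array. Abcc1 rose by 0.54 ± 0.09 in S534A LPS livers (adjusted p = 0.000395) and by 0.56 ± 0.09 in WT LPS livers (adjusted p = 0.000356). Abcc6, a liver protein whose human counterpart is mutated in pseudoxanthoma elasticum, read 9.37, 9.33, 9.41 and 9.46 on the S534A LPS arrays, 9.40, 9.31, 9.44 and 9.30 on the WT LPS arrays and 9.64, 9.99, 9.73 and 10.02 on the untreated arrays. Each LPS array was below each untreated array. Abcc6 differed from untreated by -0.45 ± 0.08 in S534A LPS livers (adjusted p = 0.00134) and by -0.48 ± 0.08 in WT LPS livers (adjusted p = 0.00104).

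Abcc3, or Mrp3, exports glucuronides and bile salts to blood. It read 11.21, 11.52, 11.47 and 11.48 on the S534A LPS arrays, 11.43, 11.19, 11.29 and 11.27 on the WT LPS arrays and 11.52, 11.54, 11.56 and 11.70 on the untreated arrays. Only the WT LPS arrays all lay below the untreated ones. Abcc3 differed from untreated by -0.16 ± 0.08 in S534A LPS livers (adjusted p = 0.174) and by -0.28 ± 0.08 in WT LPS livers (adjusted p = 0.0198). The WT call was lost without untreated replicate 4 (adjusted p = 0.0558) or WT LPS replicate 4 (0.0512), and S534A LPS replicate 1 was the low array of its group. Abcc10, or Mrp7, an exporter of lipophilic drugs, read 7.16, 7.03, 7.00 and 7.27 on the S534A LPS arrays, 7.19, 7.32, 7.15 and 7.10 on the WT LPS arrays and 7.43, 7.38, 7.50 and 7.23 on the untreated arrays. Both LPS groups overlapped the untreated one. Abcc10 differed from untreated by -0.27 ± 0.08 in S534A LPS livers (adjusted p = 0.0252) and by -0.19 ± 0.08 in WT LPS livers (adjusted p = 0.102). Its S534A call was lost without untreated replicate 1 or 3 or S534A LPS replicate 2 or 3 (adjusted p from 0.0588 to 0.0799), and it passed in WT LPS livers without untreated replicate 4 (adjusted p = 0.0473). Abcc4, Abcc5 and Abcc12 did not pass, with differences of 0.15, 0.01 and 0.07 in S534A LPS livers and 0.11, 0.08 and 0.00 in WT LPS livers. For Abcc4 every LPS array lay above every untreated array (adjusted p = 0.0564 in S534A LPS livers and 0.168 in WT LPS livers).

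Abca1 had the highest rise of the 48 members. It passes cholesterol and phospholipid to apolipoprotein A-I, the first step in forming HDL. It read 11.99, 11.86, 11.83 and 11.87 on the S534A LPS arrays, 11.85, 11.84, 11.86 and 11.89 on the WT LPS arrays and 10.92, 10.93, 10.80 and 10.82 on the untreated arrays. The 8 LPS arrays spanned 11.83 to 11.99 and the 4 untreated ones 10.80 to 10.93. Abca1 rose by 1.02 ± 0.06 in S534A LPS livers (adjusted p = 2.6e-08) and by 0.99 ± 0.06 in WT LPS livers (adjusted p = 4.42e-08). Abca3, the phospholipid transporter of surfactant bodies in lung, read 9.06, 8.93, 8.75 and 8.92 on the S534A LPS arrays, 8.85, 8.69, 8.69 and 8.42 on the WT LPS arrays and 9.18, 8.89, 9.16 and 8.95 on the untreated arrays. The WT LPS arrays lay below the untreated arrays and the S534A LPS arrays overlapped both. Abca3 differed from untreated by -0.13 ± 0.10 in S534A LPS livers (adjusted p = 0.388) and by -0.38 ± 0.10 in WT LPS livers (adjusted p = 0.0144). The WT call held without each single array but not without the arrays with pancreas transcripts (-0.41, adjusted p = 0.0622) or without untreated replicates 1 and 3 (0.128). The other 7 lipid exporters of the list, Abca2, Abca4, Abca7, Abca12, Abca13, Abcg1 and Abcg4, did not pass in either comparison, and their differences lay between -0.11 and 0.09. Abcg1, which moves cholesterol to HDL, was among them at -0.03 ± 0.07 in S534A LPS livers and 0.07 ± 0.07 in WT LPS livers.

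The 5 Abca5-like genes stand side by side on chromosome 11 in the order Abca8b, Abca8a, Abca9, Abca6 and Abca5, with no other protein-coding gene between them. They are close copies whose substrates are less well known than those of Abca1, and probes shared between Abca8a and Abca8b were not separated. All 5 fell in each LPS group, where 16% of all genes fell in S534A LPS livers and 15.6% in WT LPS livers. Abca8a read 9.42, 9.34, 9.44 and 9.11 on the S534A LPS arrays, 9.41, 9.21, 9.61 and 9.51 on the WT LPS arrays and 9.76, 10.37, 9.94 and 10.54 on the untreated arrays. No LPS array reached the lowest untreated array. Abca8a differed from untreated by -0.82 ± 0.16 in S534A LPS livers (adjusted p = 0.00142) and by -0.72 ± 0.16 in WT LPS livers (adjusted p = 0.00421). Abca9 read 5.90, 5.87, 5.79 and 6.10 on the S534A LPS arrays, 6.05, 6.01, 5.88 and 5.92 on the WT LPS arrays and 6.45, 6.57, 6.48 and 7.02 on the untreated arrays. Again the LPS arrays were all lower, with means of 5.92 in S534A LPS livers and 5.97 in WT LPS livers, near the dim end of the array. Abca9 differed from untreated by -0.71 ± 0.11 in S534A LPS livers (adjusted p = 0.000427) and by -0.67 ± 0.11 in WT LPS livers (adjusted p = 0.000892).

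Abca6 read 10.19, 10.50, 10.53 and 10.48 on the S534A LPS arrays, 10.45, 10.33, 10.71 and 10.52 on the WT LPS arrays and 10.72, 11.25, 10.78 and 11.39 on the untreated arrays. Its LPS arrays were all below the untreated arrays, by a small gap, and S534A LPS replicate 1 was the lowest. Abca6 differed from untreated by -0.61 ± 0.15 in S534A LPS livers (adjusted p = 0.00688) and by -0.54 ± 0.15 in WT LPS livers (adjusted p = 0.0165), and the WT call was lost without untreated replicate 2 (adjusted p = 0.0503). Abca8b read 8.85, 8.37, 8.46 and 8.53 on the S534A LPS arrays, 8.78, 8.27, 8.50 and 8.53 on the WT LPS arrays and 8.88, 8.88, 9.27 and 9.17 on the untreated arrays. Replicate 1 was the highest array of each LPS group, and every LPS array lay below the untreated ones. Abca8b differed from untreated by -0.50 ± 0.13 in S534A LPS livers (adjusted p = 0.0128) and by -0.53 ± 0.13 in WT LPS livers (adjusted p = 0.00978). Abca5 read 6.59, 6.52, 6.56 and 6.60 on the S534A LPS arrays, 6.69, 6.33, 6.71 and 6.48 on the WT LPS arrays and 6.72, 7.23, 6.74 and 6.89 on the untreated arrays. Neither LPS group overlapped the untreated one, but untreated replicate 2 was well above the other untreated arrays. Abca5 differed from untreated by -0.32 ± 0.11 in S534A LPS livers (adjusted p = 0.049) and by -0.34 ± 0.11 in WT LPS livers (adjusted p = 0.0422). Its S534A call was lost on leaving out any of 9 arrays (any S534A LPS replicate, WT LPS replicate 1, 3 or 4, or untreated replicate 2 or 4; adjusted p from 0.051 to 0.126), and without untreated replicate 2 the difference was -0.21. Its WT call was lost on leaving out any of 8 (any S534A LPS replicate, WT LPS replicate 2 or 4, or untreated replicate 2 or 4; adjusted p from 0.0566 to 0.11).

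**Figure D3:**
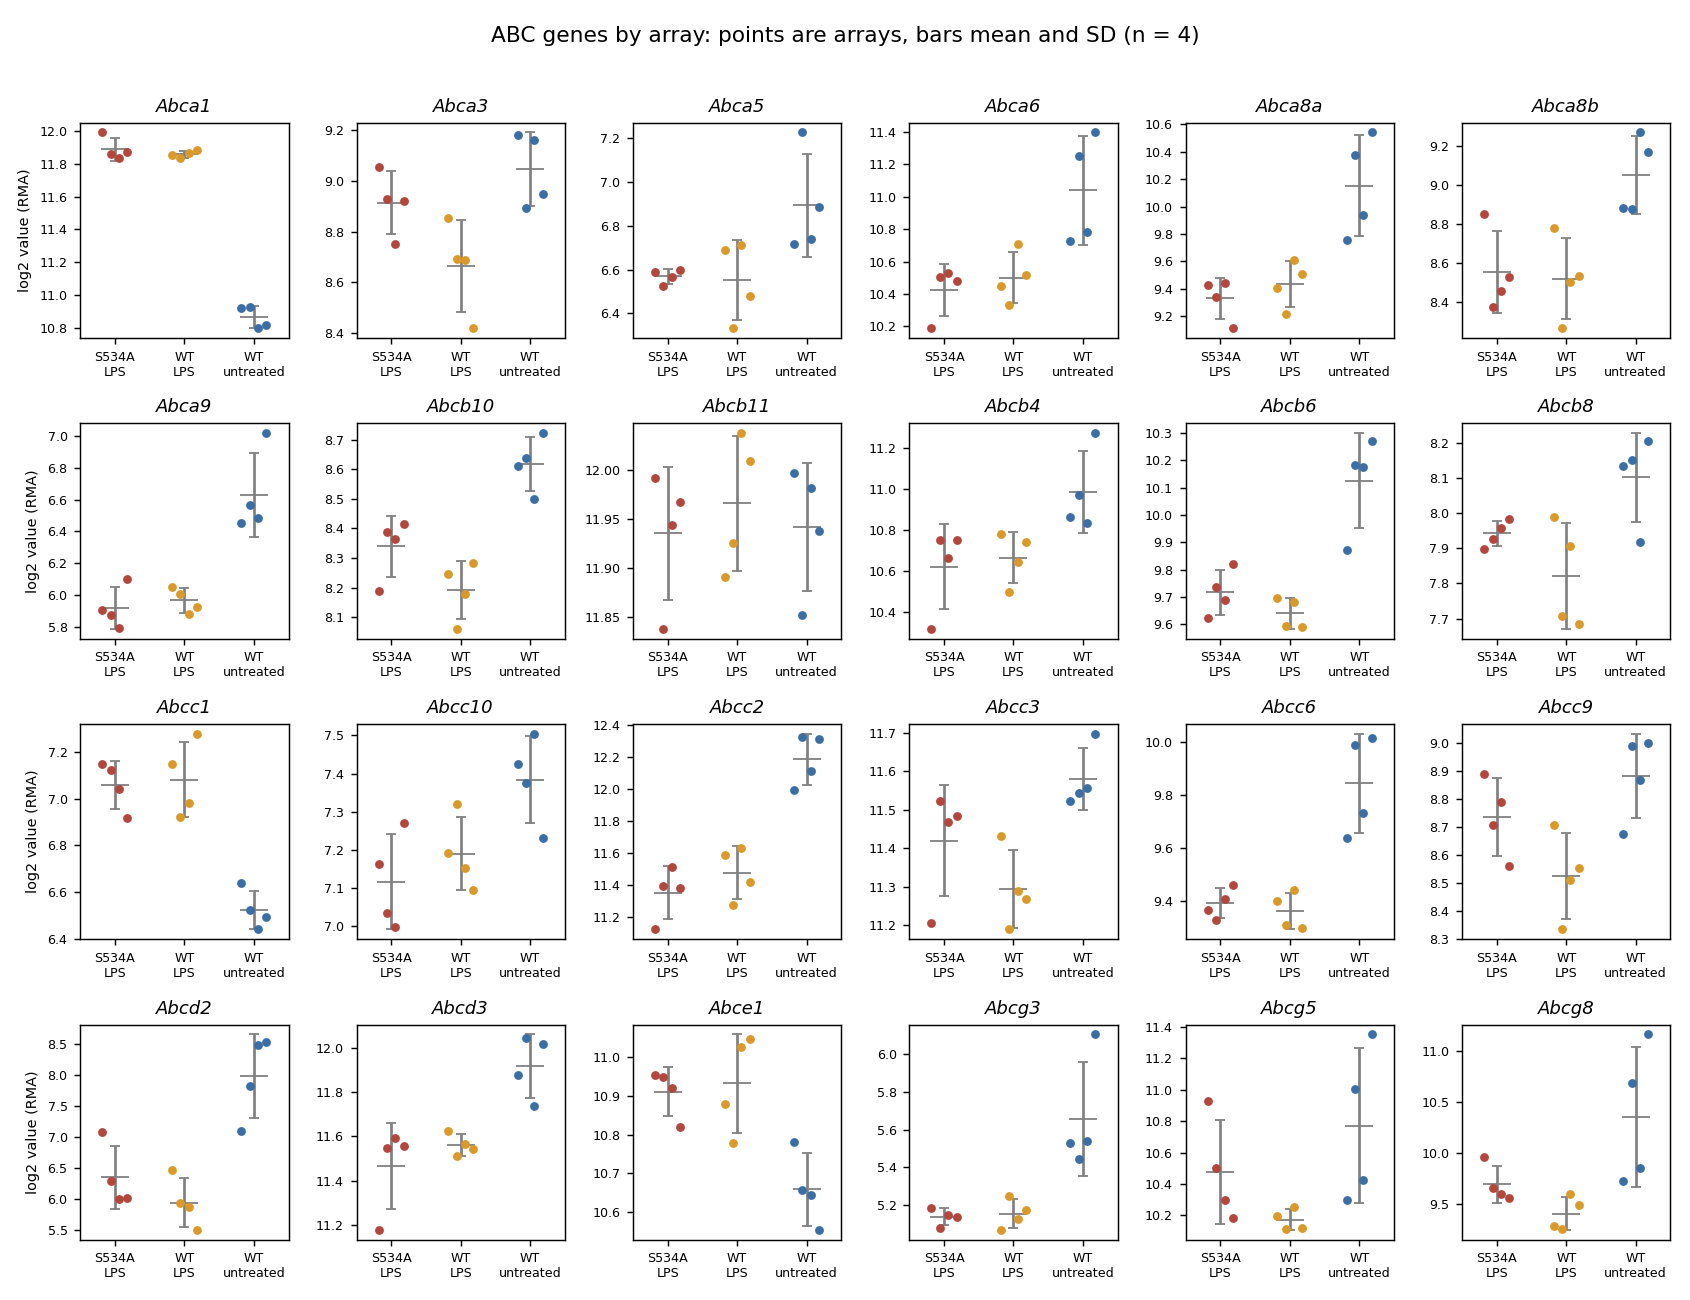
Log2 values of the 22 ABC genes called in either LPS comparison and of Abcb11 and Abcg5, with a point for each array and bars for the mean and SD of 4 arrays. Abca1, Abcc1 and Abce1 are higher in the S534A LPS and WT LPS groups than in the untreated group, and the other called genes are lower in 1 or both.

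Of the 4 measured members of the mitochondrial and lysosomal set of subfamily B, 2 fell in S534A LPS livers and 3 in WT LPS livers. The shares of all genes that fell were 16% and 15.6% in those groups. Abcb6 has been linked to porphyrin transport. It read 9.62, 9.73, 9.69 and 9.82 on the S534A LPS arrays, 9.70, 9.59, 9.68 and 9.59 on the WT LPS arrays and 9.87, 10.18, 10.18 and 10.27 on the untreated arrays. Both LPS groups lay below all untreated arrays. Abcb6 differed from untreated by -0.41 ± 0.08 in S534A LPS livers (adjusted p = 0.00226) and by -0.49 ± 0.08 in WT LPS livers (adjusted p = 0.000815). Abcb10, an inner-membrane protein needed for haem synthesis in red cell precursors, read 8.19, 8.39, 8.36 and 8.42 on the S534A LPS arrays, 8.25, 8.06, 8.18 and 8.28 on the WT LPS arrays and 8.61, 8.64, 8.50 and 8.72 on the untreated arrays. The LPS arrays were again all lower. Abcb10 differed from untreated by -0.28 ± 0.07 in S534A LPS livers (adjusted p = 0.0123) and by -0.43 ± 0.07 in WT LPS livers (adjusted p = 0.00089). Abcb8, also of the inner mitochondrial membrane, read 7.90, 7.93, 7.96 and 7.98 on the S534A LPS arrays, 7.99, 7.71, 7.91 and 7.68 on the WT LPS arrays and 8.13, 8.15, 7.92 and 8.20 on the untreated arrays. Untreated replicate 3 lay within the range of both LPS groups. Abcb8 differed from untreated by -0.16 ± 0.08 in S534A LPS livers (adjusted p = 0.184) and by -0.28 ± 0.08 in WT LPS livers (adjusted p = 0.024), and the WT call was lost without untreated replicate 1, 2 or 4 or WT LPS replicate 2 or 4 (adjusted p from 0.0539 to 0.0776).

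In subfamily D, 2 of 3 members fell in each LPS group. The shares of all genes that fell were 16% in S534A LPS livers and 15.6% in WT LPS livers. Abcd2, the peroxisomal importer named above, read 7.08, 6.29, 6.01 and 6.02 on the S534A LPS arrays, 6.47, 5.94, 5.88 and 5.51 on the WT LPS arrays and 7.10, 7.83, 8.49 and 8.53 on the untreated arrays. Neither LPS group overlapped the untreated one, although S534A LPS replicate 1 lay just below untreated replicate 1. Abcd2 differed from untreated by -1.63 ± 0.32 in S534A LPS livers (adjusted p = 0.00203) and by -2.04 ± 0.32 in WT LPS livers (adjusted p = 0.000502). Its SDs among replicates were 0.50 in S534A LPS livers, 0.40 in WT LPS livers and 0.67 in untreated livers. Abcd3, or PMP70, imports branched-chain acyl-CoA and bile acid intermediates into peroxisomes. It read 11.18, 11.55, 11.59 and 11.56 on the S534A LPS arrays, 11.63, 11.51, 11.57 and 11.54 on the WT LPS arrays and 11.88, 12.04, 11.74 and 12.02 on the untreated arrays. Every LPS array was below every untreated array, and S534A LPS replicate 1 was far below the rest of its group. Abcd3 differed from untreated by -0.45 ± 0.10 in S534A LPS livers (adjusted p = 0.00333) and by -0.36 ± 0.10 in WT LPS livers (adjusted p = 0.0156). Abcd4, a lysosomal protein of cobalamin export, averaged 7.45 ± 0.09 in S534A LPS livers, 7.50 ± 0.19 in WT LPS livers and 7.55 ± 0.09 in untreated livers (SD, n = 4 each) and did not pass.

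Abce1 splits ribosomes into subunits after termination and was the 1 member of subfamilies E and F to change. It read 10.95, 10.95, 10.92 and 10.82 on the S534A LPS arrays, 10.88, 10.78, 11.02 and 11.05 on the WT LPS arrays and 10.78, 10.66, 10.64 and 10.55 on the untreated arrays. The S534A LPS arrays lay above all untreated arrays, and the WT LPS arrays overlapped them at a single pair. Abce1 rose by 0.25 ± 0.07 in S534A LPS livers (adjusted p = 0.0218) and by 0.27 ± 0.07 in WT LPS livers (adjusted p = 0.0157). The call was lost in S534A LPS livers without untreated replicate 4 or S534A LPS replicate 1, 2 or 3 (adjusted p from 0.051 to 0.0612), and in WT LPS livers without WT LPS replicate 4 (adjusted p = 0.0534). Abcf1, Abcf2 and Abcf3, which act in translation, did not pass, with differences from -0.20 to 0.06 in S534A LPS livers and from -0.11 to 0.00 in WT LPS livers.

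Abcc9 encodes SUR2, the regulatory subunit of ATP-sensitive potassium channels in vascular and muscle cells. It averaged 8.74 ± 0.14 in S534A LPS livers, 8.52 ± 0.15 in WT LPS livers and 8.88 ± 0.15 in untreated livers (SD, n = 4 each). The WT LPS arrays overlapped the untreated ones at untreated replicate 1 alone, and the S534A LPS arrays at untreated replicates 1 and 3. Abcc9 differed from untreated by -0.15 ± 0.10 in S534A LPS livers (adjusted p = 0.318) and by -0.36 ± 0.10 in WT LPS livers (adjusted p = 0.0181), and the WT call was lost without untreated replicate 2 (adjusted p = 0.0522) or 4 (0.0503). The mean of the stellate cell markers was also lower on every LPS array than on any untreated array, as given above, and its part in this result was not tested. Its relative Abcc8, or SUR1, differed from untreated by 0.12 ± 0.12 in S534A LPS livers and 0.14 ± 0.12 in WT LPS livers and did not pass. Abcg3, a rodent gene at the dim end of the array, read 5.18, 5.08, 5.15 and 5.14 on the S534A LPS arrays, 5.07, 5.25, 5.13 and 5.17 on the WT LPS arrays and 5.53, 5.45, 5.54 and 6.11 on the untreated arrays. The LPS arrays were all below the untreated ones, and untreated replicate 4 was far above the other 3. Abcg3 differed from untreated by -0.52 ± 0.12 in S534A LPS livers (adjusted p = 0.00513) and by -0.50 ± 0.12 in WT LPS livers (adjusted p = 0.00722).

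The second question was whether the p65 substitution changed ABC genes under LPS. None of the 48 passed the test between S534A LPS and WT LPS livers by limma, where 0.171% of all genes did (33 higher and 1 lower). At an unadjusted p under 0.05 there was 1 member, Abca3, where 5.76% of all genes were under it. Abca3 differed by 0.25 ± 0.10 (unadjusted p = 0.0289, adjusted p = 0.724), with the array values given above. Abcc9 followed at 0.21 ± 0.10 (adjusted p = 0.886) and Abcb10 at 0.15 ± 0.07 (adjusted p = 0.932). Abca14, a dim member of a chromosome 7 group with Abca15 and Abca16, read 5.71, 5.70, 5.78 and 5.81 on the S534A LPS arrays, 5.59, 5.65, 5.57 and 5.65 on the WT LPS arrays and 5.69, 5.51, 5.86 and 5.46 on the untreated arrays. Its S534A LPS arrays were all above its WT LPS arrays, the single member for which these groups did not overlap, as 3.25% of all genes did in that direction. Abca14 differed by 0.13 ± 0.08 (adjusted p = 1). Abcb9, a lysosomal peptide transporter, read 6.53, 6.45, 6.40 and 6.30 on the S534A LPS arrays, 6.47, 6.83, 6.49 and 6.58 on the WT LPS arrays and 6.62, 6.79, 6.70 and 6.31 on the untreated arrays. WT LPS replicate 2 was the high array, and the groups overlapped. Abcb9 differed by -0.17 ± 0.11 (adjusted p = 1).

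The members' differences between the genotypes ran from -0.17 to 0.40, with a median of -0.01 against 0.01 over all genes. The 95% intervals bound what these 8 arrays could show. For Abca1 the interval was -0.09 to 0.15, for Abcc2 -0.36 to 0.11 and for Abcb11 -0.16 to 0.10. It was wider for Abcg8 at -0.27 to 0.84, for Abcg5 at -0.15 to 0.76 and for Abcd2 at -0.30 to 1.11, so differences of 1.5-fold upward lay inside the intervals of those genes. In S534A LPS livers replicate 1 had the highest Abcg5, Abcg8 and Abcd2 of its group and the lowest Abcc2, Abcd3, Abcb4, Abca6, Abcg2 and Abcc3. The number of members called stayed at 0 when each array was left out in turn.

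**Figure D4:**
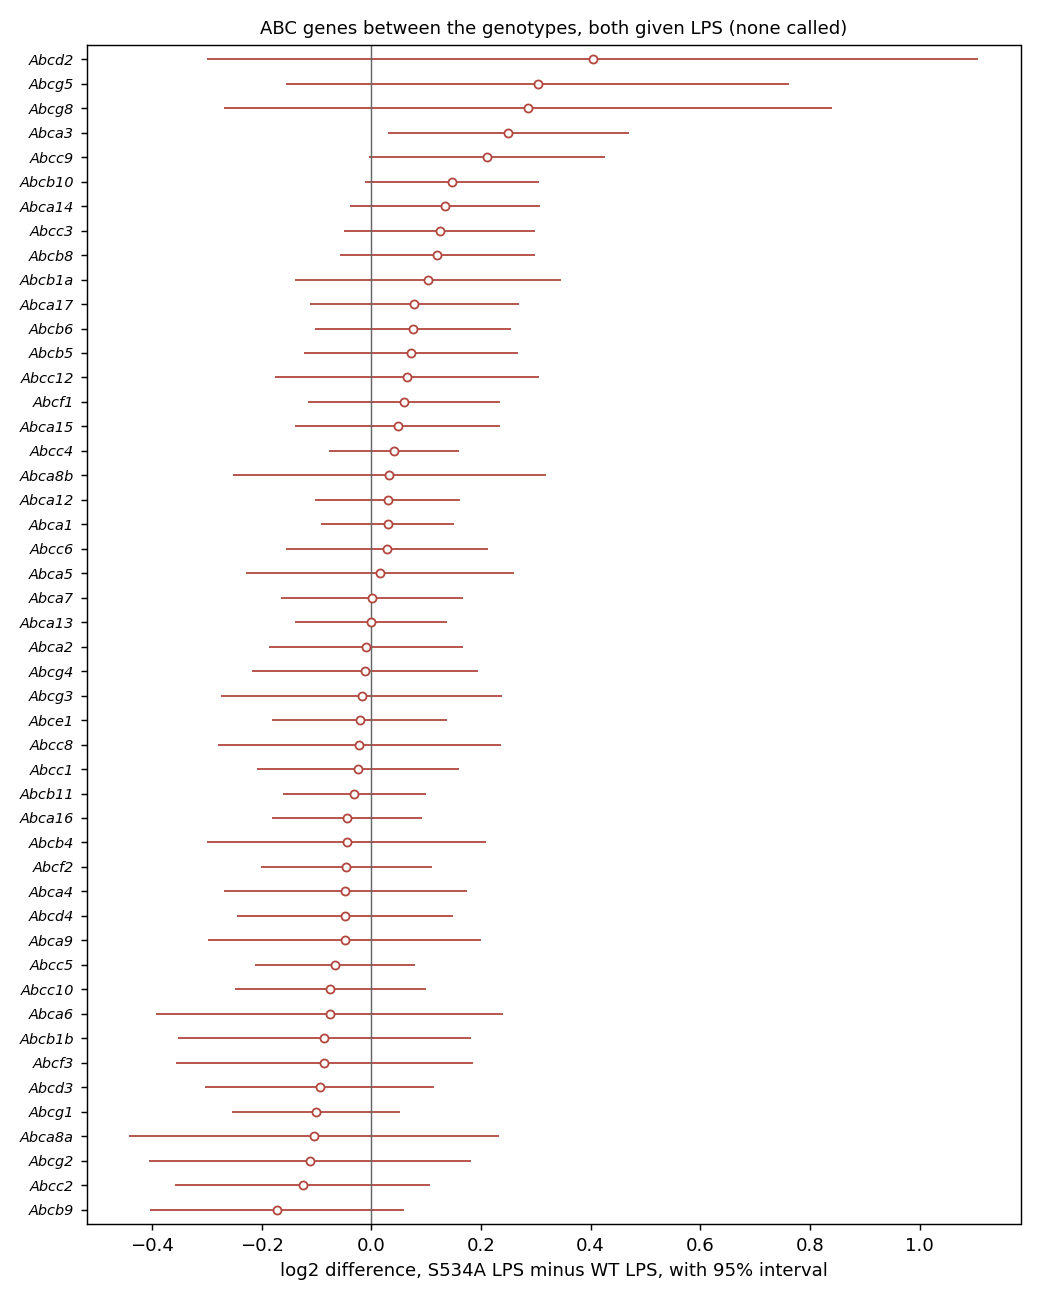
Log2 difference of each of the 48 ABC genes, S534A LPS minus WT LPS, with limma's 95% interval, ordered by size. No gene passed an adjusted p of 0.05, and the widest intervals belong to Abcd2, Abcg8 and Abcg5.

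A further 3 ABC genes carry other symbols and are outside the rule. Tap1 and Tap2 form the peptide pump that supplies MHC class I in the endoplasmic reticulum. Tap1 read 11.54, 11.54, 11.47 and 11.57 on the S534A LPS arrays, 11.40, 11.37, 11.22 and 11.19 on the WT LPS arrays and 8.51, 8.42, 8.75 and 8.29 on the untreated arrays. Tap1 rose by 3.04 ± 0.09 in S534A LPS livers (adjusted p = 5.57e-11) and by 2.80 ± 0.09 in WT LPS livers (adjusted p = 1.5e-10), more than any of the 48 members. Tap2 rose by 1.54 ± 0.06 in S534A LPS livers (adjusted p = 8.58e-10) and by 1.42 ± 0.06 in WT LPS livers (adjusted p = 2.47e-09). Cftr, the chloride channel of bile duct cells, differed from untreated by -0.07 ± 0.05 in S534A LPS livers and -0.02 ± 0.05 in WT LPS livers and did not pass. Of 10 listed genes of the MHC class I peptide pathway, 6 rose in each LPS group. Among them were the tapasin-related Tapbpl (by 2.16 ± 0.06 in S534A LPS livers and 1.91 ± 0.06 in WT LPS livers), the tapasin gene Tapbp and the immunoproteasome subunit Psmb8. Of all genes, 11% rose in S534A LPS livers and 9.34% in WT LPS livers.

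Genes that work beside the ABC exporters were counted in lists of their role, against 11% higher and 16% lower among all genes in S534A LPS livers and 9.34% higher and 15.6% lower in WT LPS livers. Of 13 solute carriers of the hepatocyte, 1 rose and 7 fell in each LPS group. The organic solute exporter subunit Slc51b rose (by 0.86 ± 0.09 in S534A LPS livers and 0.75 ± 0.09 in WT LPS livers), while Slc22a23, an orphan carrier, differed from untreated by -1.14 ± 0.11 in S534A LPS livers (adjusted p = 5.72e-06) and by -1.34 ± 0.11 in WT LPS livers (adjusted p = 1.72e-06). The uptake carrier Slco2b1 differed by -0.62 ± 0.09 in S534A LPS livers and -0.58 ± 0.09 in WT LPS livers, and the nucleoside carrier Slc29a1 by -0.84 ± 0.10 and -0.59 ± 0.10 in those groups. Of 13 transcription factors known to act on ABC genes, 1 rose and 8 fell in S534A LPS livers, and 1 rose and 5 fell in WT LPS livers. Nr1i3, the xenobiotic receptor CAR, differed from untreated by -2.42 ± 0.28 in S534A LPS livers (adjusted p = 3.02e-05) and by -2.23 ± 0.28 in WT LPS livers (adjusted p = 7.54e-05). The nuclear receptor Esrra differed by -0.49 ± 0.08 in S534A LPS livers (adjusted p = 0.000394) and by -0.45 ± 0.08 in WT LPS livers (adjusted p = 0.000992). Ppara, the fatty acid receptor, differed by -1.01 ± 0.19 in S534A LPS livers (adjusted p = 0.00121) and -0.58 ± 0.19 in WT LPS livers (adjusted p = 0.0391). Hnf4a, the hepatocyte nuclear factor, differed by 0.19 ± 0.07 in S534A LPS livers (adjusted p = 0.0768) and 0.38 ± 0.07 in WT LPS livers (adjusted p = 0.00166). Of 15 canalicular membrane partners, 5 rose and 5 fell in S534A LPS livers, and 4 rose and 6 fell in WT LPS livers, with the membrane linkers Ezr and Msn higher and the scaffold Slc9a3r2 lower in each.

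Of 9 partners in HDL and sterol handling, 2 rose and 1 fell in S534A LPS livers, and 1 rose and 1 fell in WT LPS livers, where 11.1% in each direction is near the shares of all genes. The HDL receptor Scarb1 rose by 0.27 ± 0.09 in S534A LPS livers (adjusted p = 0.0369) and by 0.35 ± 0.09 in WT LPS livers (adjusted p = 0.0091), and the lysosomal cholesterol exporter Npc1 differed from untreated by -1.14 ± 0.17 in S534A LPS livers (adjusted p = 0.00022) and by -1.02 ± 0.17 in WT LPS livers (adjusted p = 0.000652). Its partner Npc2 differed by 0.20 ± 0.07 in S534A LPS livers (adjusted p = 0.0393) and 0.06 ± 0.07 in WT LPS livers (adjusted p = 0.515). The sterol uptake protein Npc1l1 did not pass in WT LPS livers, at 0.26 ± 0.11 (adjusted p = 0.128). Of 12 peroxisomal partners of subfamily D, none rose, and 4 fell in S534A LPS livers and 5 in WT LPS livers. The racemase Amacr, which acts on branched-chain acyl-CoA, differed from untreated by -0.64 ± 0.09 in S534A LPS livers (adjusted p = 0.00017) and by -0.66 ± 0.09 in WT LPS livers (adjusted p = 0.000181). The thiolase Acaa1b differed by -0.54 ± 0.18 in S534A LPS livers and -0.83 ± 0.18 in WT LPS livers, the bifunctional enzyme Hsd17b4 by -0.23 ± 0.08 and -0.26 ± 0.08, and the import receptor Pex5 by -0.21 ± 0.07 and -0.26 ± 0.07 in those groups. Of 5 partners of Abce1 and the F members at the ribosome, 1 rose in each LPS group, and 1 fell in S534A LPS livers and 2 in WT LPS livers. Pelo, which rescues stalled ribosomes with Abce1, rose by 0.63 ± 0.08 in S534A LPS livers (adjusted p = 4.55e-05) and by 0.54 ± 0.08 in WT LPS livers (adjusted p = 0.0002). Its partner Hbs1l differed by -0.22 ± 0.10 in S534A LPS livers (adjusted p = 0.129) and -0.33 ± 0.10 in WT LPS livers (adjusted p = 0.0264), and the kinase Eif2ak4 by -0.34 ± 0.07 in S534A LPS livers (adjusted p = 0.00391) and -0.33 ± 0.07 in WT LPS livers (adjusted p = 0.00527). None of the genes of these lists passed the test between S534A LPS and WT LPS livers, the lowest adjusted p being 0.183 for Tapbpl. After it by adjusted p came Slco1a4, an organic anion carrier, at 0.88 ± 0.24 (adjusted p = 0.291), Ahr, the dioxin receptor, at -0.54 ± 0.16 (adjusted p = 0.331), and the membrane peptidase Anpep at 0.22 ± 0.07 (adjusted p = 0.391). The other genes with the smallest p of their lists in that comparison were Psmb8, Psmb10, Slc29a1, Slc22a23, Rxra, Hnf4a, Myo5b, Ezr, Npc2, Pltp, Scarb1, Pex11a, Pex3, Acaa1b, Pelo, Hbs1l and Gspt1.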

How the data were processed

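RNA of 12 liver samples was hybridised to Affymetrix whole-transcript GeneChips, with 1 array for each sample. The table deposited by the authors holds log2 values, made with RMA per the submitters' processing notes (version not given in the sources used here). No further normalisation was applied. The table held 35556 probe sets, of which 21789 carried 1 gene symbol, 1621 several and 12146 none. The probe set with the highest mean stood for each gene, which left 19938 genes. All 48 member symbols matched the GRCm38.p6 gene table. Array medians were 6.15 to 6.32, and replicates of a group correlated at 0.983 to 0.996.

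limma 3.58.1 (lmFit, eBayes) in R 4.3.3 was fitted to all 12 arrays and tested on simulated data. Tests were two-sided with Benjamini-Hochberg adjustment over all genes of a comparison. The number of arrays limits the precision. The labels do not say that replicates were handled separately, so the p-values reflect only how these samples varied, which may be technical. The labels hold no dates of collection or hybridisation, so a batch shared by a group cannot be told apart from its treatment. Sample titles of the untreated livers follow another scheme than those of the LPS livers, and the labels do not say why. The members, gene lists and comparisons were chosen with earlier results of these data known. Named genes were Abcc2, Abcb11, each member called in any comparison, the 5 members with the smallest p between the genotypes, and of each other list those among the 3 smallest p. Abcg5 was added after its values were seen. Replicate numbers follow the accession order. They were not used to pair the samples in the main fit. With the group mean of each gene subtracted, same-numbered arrays of different groups correlated at -0.27 to 0.21. Of these 12 correlations, 1 was above 0.1. Alternatives left out each array, changed the normalisation, filter, probe set rule, fit or threshold, or added the replicate number as a block.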

Additional observations from a re-analysis of the deposited data

Results flagged for a closer look

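In 75 groups of 4 arrays (25 named genes in 3 groups), 3 had an array far from the other 3 by Dixon's criterion. Chance flags about 1 in 20 groups. Abca6 on S534A LPS replicate 1 read 10.19, below 10.48, 10.50 and 10.53 on the other S534A LPS arrays. Abcd3 on the same array read 11.18, below 11.55, 11.56 and 11.59. Abcg3 on untreated replicate 4 read 6.11, above 5.45, 5.53 and 5.54 on the other untreated arrays.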

How the results depend on the processing

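Over 24 alternatives, no difference that passed the test in either setting changed sign among 1794 values of named genes. Many of these values could not change sign, since some alternatives alter only the spread, the adjustment or the threshold for these genes. Leaving out an array of a group outside a comparison also keeps that comparison's difference. Sign changed in 41 values that passed in neither, for differences of at most 0.12 in size. Of the 1794, 1680 kept their side of the threshold, 100 lost it and 14 gained it. At an adjusted p under 0.01, 11 ABC genes were called in S534A LPS against untreated livers and 11 in WT LPS against untreated livers. Without the 3 arrays with pancreas transcripts, an alternative chosen after seeing the data, the WT LPS count was 10, and without untreated replicates 2 and 4, chosen likewise, it was 12. Each leaves fewer arrays. The lost WT LPS differences were 0.709 to 1.07 times those over all arrays in the former and 0.401 to 0.857 times in the latter. The cause of the lower counts was not tested. Leaving out each array in turn gave 13 to 19 calls for S534A LPS against untreated, 16 to 21 for WT LPS against untreated, and 0 to 0 between the genotypes. With the replicate number as a block there were 15, 18 and 0 calls. In all, 10 of the 17 S534A LPS calls and 9 of the 20 WT LPS calls held in every alternative in which the gene was tested. Abca1, Abca8a, Abca9, Abcb6, Abcc1, Abcc2, Abcc6 and Abcd2 were among them in both. The 10 dim genes lie near the array's lower end, which limits what could be detected there.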
